A study of Mus musculus with 21 samples.

Results

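The Bcl2 family decides at the outer mitochondrial membrane whether a cell enters apoptosis. Its pro-survival proteins (Bcl2l1, also called Bcl-xL, and Mcl1, with Bcl2l10 counted among them here) hold back effectors such as Bak1, which permeabilise that membrane. Bok is also counted as an effector here. The remaining members counted as pro-death are Bcl2l11 (Bim), Bad, Bid, Bik and Bcl2l14 (Bcl-G). They bind the pro-survival proteins or activate effectors, except that the role of Bcl2l14 in apoptosis is less settled. In oocytes and early embryos these RNAs are at first laid down by the mother, and transcripts of the embryo's own genome replace them around the 2-cell stage in the mouse. These 10 genes, of 15967 with a symbol of their own on the array, were chosen by gene symbol and had 14 probes between them.

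RNA of mouse embryos and embryonic stem (ES) cells was measured on 21 Illumina bead arrays in 8 groups. M phase nuclear transfer embryos (4 arrays) were taken 22 to 24 h after transfer, at an age of 48 to 50 h after hCG, the hormone given to the egg donor. Interphase nuclear transfer embryos (2 arrays) had been enucleated and given a genome as interphase zygotes and had the same age. Genomeless embryos (2 arrays) had been enucleated without receiving a genome and were taken 22 to 24 h later, also at 48 to 50 h. Drug controls (3 arrays) were embryos of that age that had been exposed at mitosis to nocodazole, a drug that depolymerises microtubules. The other groups were cultured ES cells (2 arrays), interphase zygotes at 24 to 28 h (3 arrays), zygotes held in mitosis by nocodazole at 32 to 34 h (3 arrays) and 2-cell embryos at 48 to 50 h (2 arrays). Embryos were pooled, 20 per array, and no source used here names the donor cells of the transfers. The time since transfer is given for M phase but not for interphase transfer, so recipient stage and that time cannot be told apart.

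Mean signal was 73.0 to 687.57 on 19 arrays, but 11.25 on genomeless array B and 12.79 on interphase transfer array B, and these 2 arrays also detected the fewest probes (2426 and 3412, against up to 8317 elsewhere). Oocyte markers were summed on the mean-scaled signal, and the sum was 6709.3 to 12925.2 in M phase transfer embryos, 35030.2 to 62362.8 in interphase transfer embryos, 39998.6 to 45415.9 in genomeless embryos, 9041.3 to 10675.3 in drug controls and 55.7 to 107.5 in ES cells. In the embryo series it was 45297.1 to 51463.1 in interphase zygotes, 46251 to 48788.5 in mitotic zygotes and 8552.3 to 9839.5 in 2-cell embryos. The source label of ES array A names peripheral blood, yet all 7 ES cell markers were detected on both ES arrays and 9 of 10 oocyte markers on neither. Of 6 blood markers, Cd3e was detected on both ES arrays and was at least 1.47-fold higher in ES cells than in 2-cell embryos (adjusted p = 0.0104), and the other 5, Ptprc and Hba-a1 among them, were detected on neither. Pairs of arrays, mitotic zygotes A and C and drug controls B and C, differed by less than other replicates and were counted as 1 sample each, which left 19 samples. The labels do not say whether other arrays of a group came from separate collections, so p-values measure the spread between these samples, which may be technical.

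Promoter windows of 4 members are printed below. All are 300 bases of RefSeq's GRCm38.p6, reaching 250 bases before and 50 bases after the first annotated start, printed on the gene's strand. Bad and Bcl2l14 are shown because their RNA was higher in 2-cell embryos and undetected in genomeless ones, and Mcl1 and Bok because their RNA was higher in both. Capitals mark a GC box (GGGCGG or, on the other strand, CCGCCC) or a CCAAT box (CCAAT or ATTGG).
Bad, chr19:6941611-6941910, plus strand: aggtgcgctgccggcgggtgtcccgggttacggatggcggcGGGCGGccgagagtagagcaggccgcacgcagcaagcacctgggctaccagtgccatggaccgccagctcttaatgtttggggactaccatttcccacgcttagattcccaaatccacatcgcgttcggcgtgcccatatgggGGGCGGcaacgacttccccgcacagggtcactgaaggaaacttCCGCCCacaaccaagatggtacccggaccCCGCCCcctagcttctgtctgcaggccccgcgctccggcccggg
Bcl2l14, chr6:134396079-134396378, plus strand: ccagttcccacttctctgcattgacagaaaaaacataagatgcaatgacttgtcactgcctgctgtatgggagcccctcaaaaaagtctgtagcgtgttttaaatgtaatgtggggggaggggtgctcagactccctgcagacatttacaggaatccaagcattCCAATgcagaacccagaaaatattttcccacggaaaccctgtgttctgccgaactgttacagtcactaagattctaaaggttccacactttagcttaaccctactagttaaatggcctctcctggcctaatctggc
Mcl1, chr3:95658471-95658770, plus strand: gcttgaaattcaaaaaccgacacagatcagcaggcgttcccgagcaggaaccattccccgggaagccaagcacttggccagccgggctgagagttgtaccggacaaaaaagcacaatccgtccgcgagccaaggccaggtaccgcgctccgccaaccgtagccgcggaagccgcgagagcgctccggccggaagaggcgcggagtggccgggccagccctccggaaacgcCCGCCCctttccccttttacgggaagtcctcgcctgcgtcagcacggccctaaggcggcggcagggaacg
Bok, chr1:93685325-93685624, plus strand: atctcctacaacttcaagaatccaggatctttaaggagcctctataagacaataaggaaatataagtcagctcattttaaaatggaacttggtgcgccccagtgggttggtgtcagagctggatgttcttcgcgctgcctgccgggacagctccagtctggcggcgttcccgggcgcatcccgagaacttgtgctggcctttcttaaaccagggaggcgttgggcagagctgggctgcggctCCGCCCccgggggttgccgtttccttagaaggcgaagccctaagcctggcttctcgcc
The Bad window held 4 GC boxes and 27 CpG dinucleotides, and the Bcl2l14 window no GC box, 1 CCAAT box and 3 CpG. Both genes have another annotated start, not printed. Its window held no GC box and 1 CCAAT box in each gene, with 21 CpG for Bad and 6 for Bcl2l14. The Mcl1 window held 1 GC box and 33 CpG, and the Bok window 1 GC box and 16 CpG. Of all 32851 windows in the table, 35.7% held a GC box and 37.4% a CCAAT box, and the median window had 7 CpG. Neither TATAAA nor TAATCC (the core bound by bicoid-class homeodomain proteins), searched on both strands, was found in any of the 13 windows of the 8 members that have one, while 13.6% and 7.1% of all windows held them. A match is a description of letters and not a binding site.

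Levels below are log2 of the background-corrected and quantile-normalised signal. They compare 1 probe across groups and never 1 gene with another. Quantile normalisation gives all arrays the same distribution, so a level is relative to the other probes on its array. A probe was detected on an array where its deposited detection p-value was below 0.01, and the lowest level of a detected probe was 6.42 to 7.29 on all arrays except genomeless B (8.74) and interphase transfer B (8.04). Of the 14 member probes, 13 were detected on at least 2 arrays and tested. The other, probe 1 of Bok, was detected on none. Differences were called at an adjusted p below 0.05 in a limma fit over 11541 probes and all 8 groups. A log2 difference against a group without detection compares readings at background and is no measure of fold, which the bounds give instead. In bulk samples, fewer cells that carry an RNA and less of it per cell cannot be told apart.

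**Figure D1:**
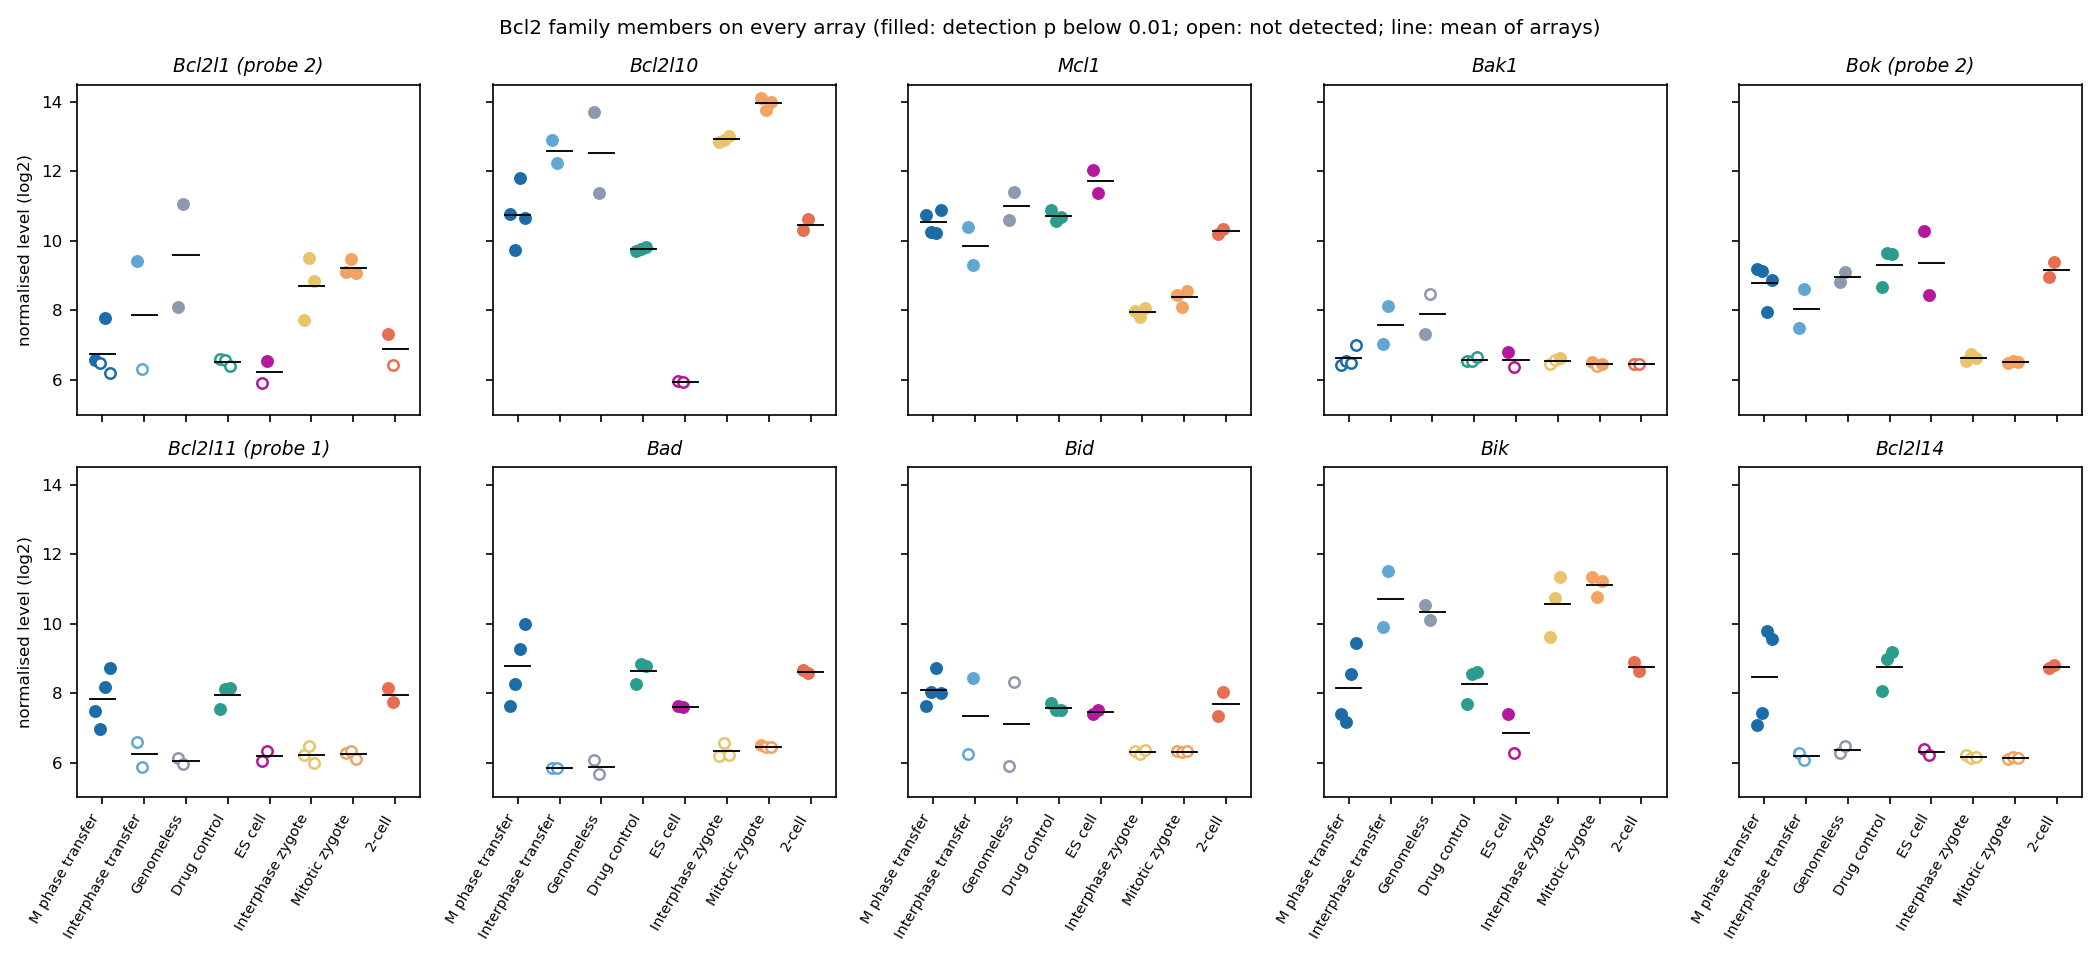
Normalised level (log2) of 1 probe for each of the 10 genes on every array, by group. Filled points were detected, open points were not, and lines are means of the arrays. Bcl2l10 lies at 12.84 to 14.10 in zygotes and at 5.93 to 5.97 in ES cells, while Bad and Bcl2l14 are undetected in genomeless and interphase transfer embryos.

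Among the pro-survival genes, Bcl2l10 fell across the first cleavage and Mcl1 rose. Bcl2l10, counted here as pro-survival, encodes a protein known for its abundance in oocytes. Its levels were 10.76, 9.75, 11.82 and 10.67 in M phase transfer embryos, 12.91 and 12.24 in interphase transfer embryos, 13.70 and 11.37 in genomeless embryos, 9.71, 9.76 and 9.82 in drug controls and 5.97 and 5.93 in ES cells, where it was undetected. In the embryo series they were 12.84, 12.90 and 13.02 in interphase zygotes, 14.10, 13.76 and 14.01 in mitotic zygotes and 10.32 and 10.62 in 2-cell embryos. Mitotic zygotes were thus highest and ES cells lowest, and every embryo array detected the RNA. In order of group mean, mitotic zygotes (13.91) stood above interphase zygotes (12.92), interphase transfer (12.57) and genomeless embryos (12.54), which overlapped one another, and below these came M phase transfer (10.75), 2-cell embryos (10.47) and drug controls (9.75), of which M phase transfer overlapped both others and genomeless array B.

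Mcl1 encodes a short-lived pro-survival protein that many cell types need. Its levels were 10.75, 10.26, 10.24 and 10.90 in M phase transfer embryos, 10.41 and 9.31 in interphase transfer embryos, 10.61 and 11.42 in genomeless embryos, 10.89, 10.58 and 10.69 in drug controls and 12.05 and 11.37 in ES cells. From interphase onward the embryo series read 7.97, 7.82 and 8.08 in interphase zygotes, 8.45, 8.09 and 8.57 in mitotic zygotes and 10.21 and 10.34 in 2-cell embryos. Mcl1 was detected on all 21 arrays, and all arrays of the other groups lay above all zygote arrays, the genomeless ones included.

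Bcl2l1 protects cells against Bak1 and had 3 tested probes. Probe 1 read 5.97, 6.22, 7.38 and 6.12 in M phase transfer embryos (detected on array C alone), 8.33 and 8.59 in interphase transfer embryos, 7.92 and 10.57 in genomeless embryos, 6.39, 6.01 and 5.93 in drug controls and 5.79 and 5.95 in ES cells, with no detection in these last 2 groups. Along the embryo series it read 7.17, 8.36 and 8.11 in interphase zygotes, 7.66, 8.0 and 7.50 in mitotic zygotes, and 5.83 and 5.90 without detection in 2-cell embryos. The highest reading came from genomeless array B, one of the 2 dim arrays. Across the 19 samples probe 1 correlated with probe 2 at r = 0.836 and with probe 3 at r = 0.932, values that describe samples of shared groups. Probes 2 and 3 differed from probe 1 in interphase transfer embryos, where each was detected on array A (9.43 and 8.05) but not on the dim array B (6.30 and 7.09).

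Of the effectors, Bok was low in zygotes and higher in all other groups, and Bak1 stayed near the limit of detection in most. Bok encodes an effector that can act without Bak and Bax. Probe 2 read 9.20, 9.13, 7.96 and 8.88 in M phase transfer embryos, 7.48 and 8.61 in interphase transfer embryos, 8.81 and 9.11 in genomeless embryos, 8.66, 9.64 and 9.62 in drug controls and 10.28 and 8.44 in ES cells. Along the embryo series it read 6.54, 6.75 and 6.62 in interphase zygotes, 6.48, 6.55 and 6.50 in mitotic zygotes and 8.96 and 9.38 in 2-cell embryos, with detection on all 21 arrays. No zygote array reached the lowest array of any other group.

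Bak1 encodes the effector that Mcl1 and Bcl2l1 restrain. It read 7.03 and 8.12 in interphase transfer embryos (both detected) and 7.31 (detected) and 8.47 (not detected) in genomeless embryos. In the other groups it lay between 6.38 and 6.99, was detected on no array of M phase transfer embryos, drug controls or 2-cell embryos, and was detected on 1 of 2 ES, 1 of 3 interphase zygote and 2 of 3 mitotic zygote arrays. The higher readings thus stood in the 2 groups that hold the dim arrays.

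The other pro-death members split into RNAs undetected or near the detection limit in zygotes (Bad, Bcl2l11, Bid and Bcl2l14) and 1 abundant there (Bik). Bad encodes a sensitiser that occupies Bcl2l1 when growth factor signals are withdrawn. It read 7.62, 8.27, 9.26 and 9.98 in M phase transfer embryos, 5.86 on both arrays of interphase transfer embryos, 6.08 and 5.68 in genomeless embryos, 8.27, 8.85 and 8.77 in drug controls and 7.62 and 7.6 in ES cells. In the embryo series it read 6.19, 6.58 and 6.22 in interphase zygotes, 6.50, 6.44 and 6.44 in mitotic zygotes and 8.67 and 8.58 in 2-cell embryos. It was detected on no interphase transfer, genomeless or interphase zygote array, on 1 of 3 mitotic zygote arrays and on every array of the remaining groups.

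Bcl2l14 encodes Bcl-G, whose role in apoptosis is less settled. It read 7.10, 7.42, 9.80 and 9.57 in M phase transfer embryos, 8.07, 8.98 and 9.19 in drug controls and 8.73 and 8.80 in 2-cell embryos, with detection on all of these arrays. On the other 12 arrays it lay between 6.09 and 6.48 and was detected on none, ES cells included. M phase transfer arrays A and B, on chip 5, read lower than arrays C and D, on chip 6.

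Bcl2l11 encodes Bim, an activator that binds all the main pro-survival proteins, and its probes, annotated to different transcripts, disagreed. Probe 1 read 7.49, 6.98, 8.19 and 8.72 in M phase transfer embryos, 7.55, 8.12 and 8.15 in drug controls and 8.15 and 7.75 in 2-cell embryos, all detected. It lay between 5.88 and 6.61 and was undetected in all other groups. Probe 2 was detected on 3 arrays, ES B (6.85), genomeless B (9.41) and M phase transfer C (6.63), so that the 2 probes shared detection on M phase transfer array C alone.

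Bid links death receptors to mitochondria after caspase cleavage. It read 7.62, 8.05, 8.74 and 8.01 in M phase transfer embryos, 7.71, 7.52 and 7.53 in drug controls, 7.41 and 7.53 in ES cells and 7.34 and 8.03 in 2-cell embryos, all detected. Zygotes read 6.24 to 6.37 without detection. Interphase transfer embryos read 6.26 without detection and 8.44 with it, and genomeless embryos 5.91 and 8.33, both undetected, so the 2 arrays of each of these groups lay on opposite sides of the drug controls.

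Bik encodes a pro-death protein of the endoplasmic reticulum and mitochondria. It read 7.41, 7.17, 8.56 and 9.45 in M phase transfer embryos, 9.92 and 11.53 in interphase transfer embryos, 10.54 and 10.12 in genomeless embryos, 7.68, 8.54 and 8.62 in drug controls and 7.40 (detected) and 6.29 (not detected) in ES cells. In the embryo series it read 9.61, 10.73 and 11.34 in interphase zygotes, 11.35, 10.76 and 11.23 in mitotic zygotes and 8.90 and 8.63 in 2-cell embryos. Zygotes, genomeless and interphase transfer embryos lay above all arrays of the other groups, as they did for Bcl2l10 apart from genomeless array B (11.37).

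**Figure D2:**
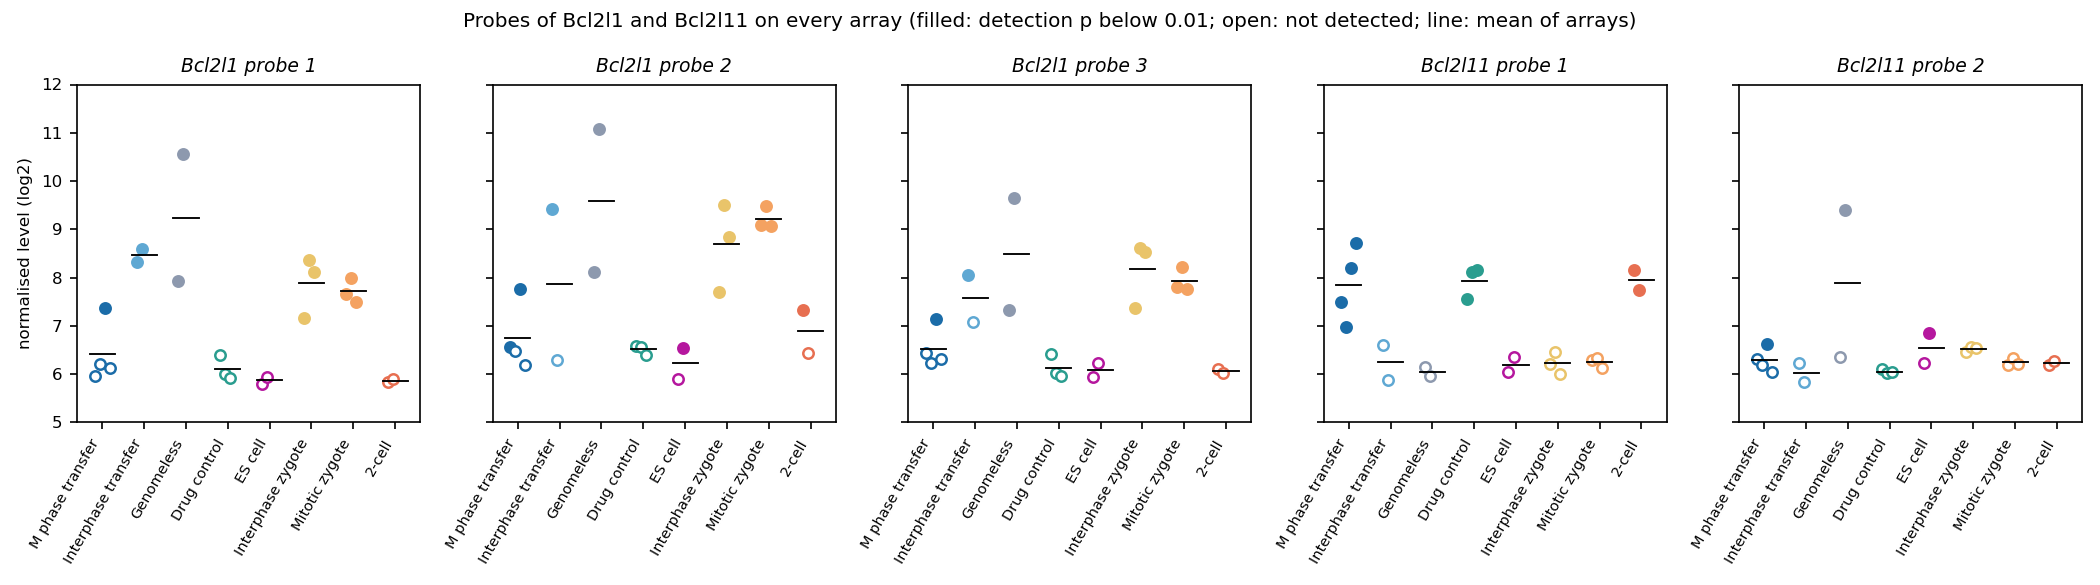
Normalised level (log2) of the 3 probes of Bcl2l1 and the 2 probes of Bcl2l11 on every array, by group. Filled points were detected, open points were not, and lines are means of the arrays. The Bcl2l1 probes share their high and low groups, whereas Bcl2l11 probe 2 is high on genomeless array B (9.41) alone.

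The comparison of 2-cell embryos with mitotic zygotes spans the first cleavage and the switch to the embryo's genome. Mitotic zygotes had been held by nocodazole at 32 to 34 h, and 2-cell embryos were taken at 48 to 50 h. Drug, cell cycle phase and age thus cannot be told apart from cleavage and the switch of genome. Of 13 member probes, 5 were higher and 4 lower in 2-cell embryos, against 27.1% of all tested probes called in either direction (13.5% higher and 13.6% lower). Their median log2 difference was 0.02, against -0.04 over all probes. Bok probe 2 rose by 2.65 ± 0.56 (log2 difference ± SE, adjusted p = 0.00333 in limma's fit) and Mcl1 by 1.97 ± 0.40 (adjusted p = 0.00227). Bad rose by 2.17 ± 0.54 (adjusted p = 0.00895, detected on 1 of 3 mitotic arrays). Bcl2l14 was at least 4.91-fold higher (adjusted p = 0.0142) and Bcl2l11 probe 1 at least 2.78-fold higher (adjusted p = 0.0152), bounds set by the lowest detected levels because both were undetected in mitotic zygotes. Bcl2l10 fell by 3.44 on the log2 scale (SE 0.64, adjusted p = 0.00133), and Bik fell by 2.26 (SE 0.76, adjusted p = 0.0398).

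Bcl2l1 was at least 2.31-fold lower by probe 1 (adjusted p = 0.0468) and at least 2.68-fold lower by probe 3 (adjusted p = 0.0320), undetected in 2-cell embryos. Its probe 2, with a difference of -2.39 ± 0.98, did not pass (adjusted p = 0.0879), nor did Bid (1.37 ± 0.69, adjusted p = 0.169). Both passed once genomeless array B and interphase transfer array B, the 2 dim arrays, were left out of the fit and so out of its shared spread (Bcl2l1 probe 2 adjusted p = 0.00642, Bid adjusted p = 0.00534). Scaling the arrays to a common median ended the calls of Bcl2l10 (-3.26, adjusted p = 0.134), Mcl1 (1.69, adjusted p = 0.222), Bik (-2.28, adjusted p = 0.0828) and Bcl2l1 probe 1 (-1.45, adjusted p = 0.114), and Bik lost its call under 9 of 17 alternatives. On chip 4, which held both groups, the differences were -3.42 for Bcl2l10, 1.94 for Mcl1, 2.65 for Bok, 2.18 for Bad and -2.23 for Bik. Leaving out any 1 sample of either group reduced the 9 calls to between 3 and 5.

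Markers of other cell types moved with these members. Of 9 oocyte markers tested, 6 were lower in 2-cell embryos, as Bcl2l10 and Bik were. Of 8 cumulus and granulosa markers on the array, only Amhr2, a hormone receptor gene of granulosa cells, was tested, and it was at least 19.3-fold higher in 2-cell embryos (adjusted p = 2.57e-07), as Bad and Bcl2l14 were. The other 7 were undetected in 2-cell embryos, Foxl2 and Fshr included, and the list's summed signal was 1590.9 to 1598.6 in 2-cell embryos and 24.4 to 52.7 in mitotic zygotes. Of 7 ES cell markers Nanog alone was called, at least 3.03-fold higher in 2-cell embryos (adjusted p = 0.0140), with summed signals of 1047.8 to 1388.6 in 2-cell embryos and 587.9 to 1058.6 in mitotic zygotes. The part of these markers in the result was not tested.

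The preceding step, mitotic against interphase zygotes, gave no member call. Nocodazole, cell cycle phase and age differed together in it and cannot be told apart. None of the 13 probes was called in the limma fit (0 of 11541 probes in all, 0%), and none of them was among the 631 probes with an unadjusted p below 0.05. Bcl2l10 lay 0.99 ± 0.58 higher in mitotic zygotes, and with array quality weights in limma it was called (difference 0.97, adjusted p = 0.0273). Nocodazole exposure at mitosis also left no call: drug controls against 2-cell embryos had 0 of 13 member probes and 0% of all probes called in limma, with 142 probes at an unadjusted p below 0.05, none of them a member. Bcl2l10 differed by -0.72 ± 0.64, Bik by -0.64 ± 0.76 and Mcl1 by 0.49 ± 0.40.

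**Figure D3:**
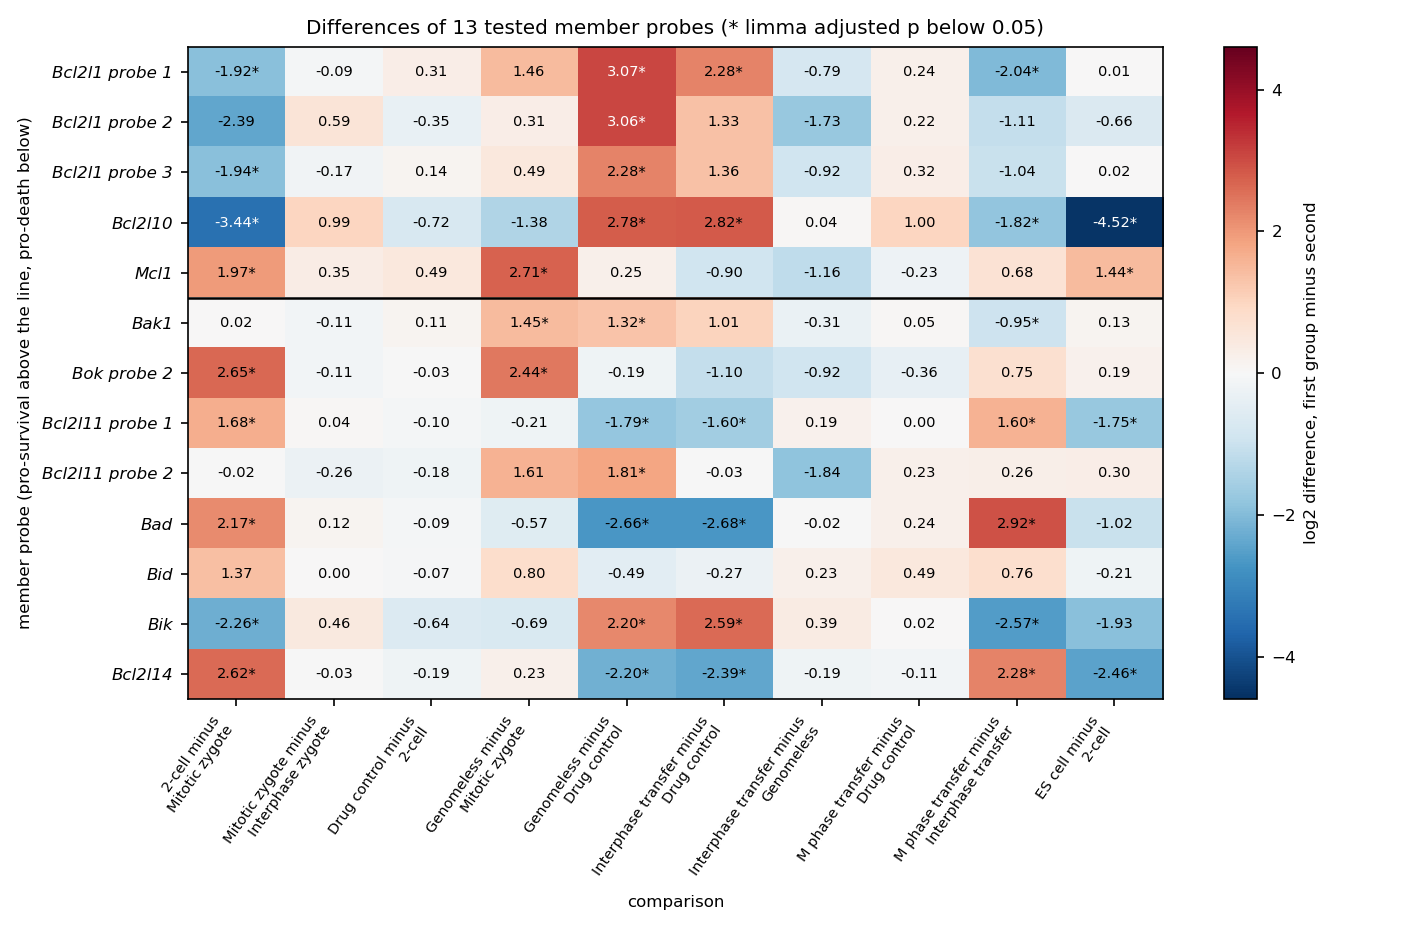
Log2 difference of the 13 tested member probes in 10 comparisons, first group minus second, with red for higher and blue for lower in the first group. Asterisks mark an adjusted p below 0.05. Bad, Bcl2l14 and Bcl2l11 probe 1 are blue and Bcl2l10 and Bik red in genomeless and interphase transfer embryos against drug controls, and the colours turn in M phase against interphase transfer.

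Genomeless embryos show which RNAs differed after 22 to 24 h without a genome. Against mitotic zygotes, 3 of 13 member probes were higher and none lower, against 19.8% of all probes called (6.63% higher and 13.1% lower). Mcl1 was higher by 2.71 ± 0.40 (adjusted p = 0.000644) and Bok by 2.44 ± 0.56 (adjusted p = 0.00844). Bak1 was also called higher (1.45 ± 0.39, adjusted p = 0.0177), but its readings lay near the lowest detected level in both groups. They were 7.31 (lowest detected level 7.29) and, undetected, 8.47 (8.74) in genomeless embryos and 6.39 to 6.50 in mitotic zygotes (6.45 to 6.48). No fold is given for Bak1. Genomeless arrays detected 2426 to 4816 probes and mitotic zygote arrays 7887 to 8131, and a higher level need not mean more RNA per embryo. Without the 2 dim arrays, which leaves genomeless array A alone, the differences were 2.31 for Mcl1, 2.29 for Bok and 0.87 for Bak1. Bcl2l10 (-1.38 ± 0.64, adjusted p = 0.153) and Bik (-0.69 ± 0.76, adjusted p = 0.584) did not pass. Scaling the arrays to a common median in place of quantile normalisation ended all 3 calls, with a difference of 1.52 for Mcl1 (adjusted p = 0.323).

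Against drug controls of the same age, genomeless embryos had 7 member probes higher and 3 lower, with 29.1% of all probes called (10.9% higher and 18.2% lower). Bcl2l10 was higher by 2.78 ± 0.64 (adjusted p = 0.00469). Bcl2l1, undetected in drug controls, was at least 5.86-fold, 7.45-fold and 3.46-fold higher by probes 1, 2 and 3 (adjusted p = 0.00348, 0.0307 and 0.0125). These bounds use the mean of both genomeless arrays and lean on the dim array B. Probes 1, 2 and 3 read 10.57, 11.07 and 9.65 on array B but 7.92, 8.11 and 7.33 on array A, which alone lay below the bounds. Bik was higher by 2.20 ± 0.76 (adjusted p = 0.0414). Bak1 (measured means 7.89 in genomeless embryos and 6.56 in drug controls, adjusted p = 0.0186) and Bcl2l11 probe 2 (7.88 and 6.06, adjusted p = 0.0454) were also called higher, but each was detected on 1 of 2 genomeless arrays and on no drug control array, so no fold is given. Bad was at least 1.44-fold lower (adjusted p = 0.00222) and Bcl2l14 at least 1.48-fold lower (adjusted p = 0.0312), small bounds set by the high floor of genomeless array B. Bcl2l11 probe 1 was also lower (measured means 6.06 in genomeless embryos and 7.85 in drug controls, adjusted p = 0.00951), but its bound lay under 1 and gives no fold. Mcl1 (0.25 ± 0.40, adjusted p = 0.690) and Bok (-0.19 ± 0.56, adjusted p = 0.855) did not pass.

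Without the 2 dim arrays the lone genomeless array is assumed to vary like the other groups, and no share of all probes is set beside the member calls. Calls were left for Bad (-2.46), Bcl2l10 (3.95), Bcl2l1 probe 1 (1.74), Bcl2l11 probe 1 (-1.69) and Bid, which then was lower (-1.71). The 6 calls lost were those of Bcl2l1 probes 2 (1.58, adjusted p = 0.108) and 3 (1.12, adjusted p = 0.104), Bik (2.42, adjusted p = 0.0530), Bak1 (0.74, adjusted p = 0.0584), Bcl2l11 probe 2 (0.28, adjusted p = 0.521) and Bcl2l14 (-2.31, adjusted p = 0.0705). With median scaling Bad alone kept its call. Of the 9 oocyte markers tested, 4 were higher in genomeless embryos than in drug controls. Amhr2 was at least 6.72-fold lower (adjusted p = 2.05e-07) and Nanog at least 1.51-fold lower (adjusted p = 0.00288), both undetected in genomeless embryos, and the part of these markers was not tested.

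Interphase transfer embryos carried a transferred genome, and against drug controls Bcl2l10 and Bik were higher and Bad lower. There were 3 probes higher and 3 lower, with 24.5% of all probes called (8.47% higher and 16% lower). Bcl2l10 was higher by 2.82 ± 0.64 (adjusted p = 0.00523), Bik by 2.59 ± 0.76 (adjusted p = 0.0226) and Bcl2l1 probe 1 by at least 3.39-fold (adjusted p = 0.0236). Bad was at least 2.08-fold lower (adjusted p = 0.00255), Bcl2l14 at least 2.14-fold (adjusted p = 0.0249) and Bcl2l11 probe 1 at least 1.29-fold (adjusted p = 0.0214). Without the 2 dim arrays, where interphase transfer array A stands alone and is assumed to vary like the other groups, the differences of Bcl2l10 (3.16, adjusted p = 0.00135), Bcl2l1 probe 1 (2.15, adjusted p = 0.0119) and Bad (-2.68, adjusted p = 0.0109) passed, while those of Bik (1.79, adjusted p = 0.150), Bcl2l14 (-2.29, adjusted p = 0.0761) and Bcl2l11 probe 1 (-1.24, adjusted p = 0.113) did not. Bcl2l1 probes 2 (2.89, adjusted p = 0.00855) and 3 (1.84, adjusted p = 0.0145) and Bid (-1.36, adjusted p = 0.0197) passed in that fit on that 1 array. With median scaling Bad alone kept its call. Amhr2 was at least 9.72-fold lower (adjusted p = 3.83e-07) and Nanog at least 2.18-fold lower (adjusted p = 0.00811) in interphase transfer embryos, and their part was not tested.

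The direct comparison of interphase transfer with genomeless embryos had 0 of 13 member probes called, against 0.91% of all probes (0.555% higher and 0.355% lower). In limma's fit 1476 probes had an unadjusted p below 0.05, 2 of them members. These were Mcl1 (-1.16 ± 0.40, adjusted p = 0.206) and Bcl2l11 probe 2 (-1.84 ± 0.64, adjusted p = 0.209), named after their values were seen, and the second was detected on 1 of the 4 arrays. Bcl2l10 differed by 0.04 ± 0.64 and Bik by 0.39 ± 0.76, while Bad was undetected on all 4 arrays and its levels cannot be compared. Without genomeless array A only the dim array is left in that group, so member calls in that fit are not read.

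M phase transfer embryos were also set against drug controls. None of the 13 member probes was called, against 0.199% of all probes (0.0953% higher and 0.104% lower), and no member was among the 889 probes with an unadjusted p below 0.05 in limma's fit. Bcl2l10 had the widest difference (1.0 ± 0.55, adjusted p = 0.796), Bid lay 0.49 ± 0.60 higher, Bok 0.36 lower (difference -0.36 ± 0.49), and Bad, Bik and Bcl2l14 differed by 0.24 ± 0.47, 0.02 ± 0.66 and -0.11 ± 0.62. Standard errors of the 13 differences were 0.33 to 0.85 on the log2 scale, and a missed threshold does not show equal levels.

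M phase against interphase transfer compares recipients of different cell cycle stage, and 3 member probes were higher and 4 lower, with 26.8% of all probes called (16.6% higher and 10.2% lower). Bad was at least 2.47-fold higher (adjusted p = 0.000397), Bcl2l14 at least 1.98-fold (adjusted p = 0.0132) and Bcl2l11 probe 1 at least 1.29-fold (adjusted p = 0.00844), all undetected in interphase transfer embryos. Bik fell by 2.57 (SE 0.66, adjusted p = 0.00947) and Bcl2l10 fell by 1.82 (SE 0.55, adjusted p = 0.0244). Bcl2l1 probe 1 was called lower (-2.04 ± 0.58, adjusted p = 0.0178), with detection on 1 of 4 M phase transfer arrays, so that most of its readings there were at background. Bak1 was called lower (measured means 6.62 in M phase and 7.57 in interphase transfer embryos, adjusted p = 0.0475), a call lost without the dim arrays (difference -0.41). Its interphase transfer readings of 7.03 and 8.12 lay near the lowest detected levels of those arrays (6.92 and 8.04), so no fold is given. The other 2 probes of Bcl2l1 did not pass, with differences of -1.11 ± 0.85 and -1.04 ± 0.54.

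Both chips 5 and 6 held both kinds of transfer embryo. M phase minus interphase transfer was -2.65 on chip 5 and -0.99 on chip 6 for Bcl2l10 and -2.63 and -2.52 for Bik. Bad averaged 7.94 on chip 5 and 9.62 on chip 6 in M phase transfer embryos, and Bcl2l14 7.26 and 9.68. Both were undetected on the interphase transfer arrays, where the lowest detected levels were 6.92 (chip 5) and 8.04 (chip 6). Without the 2 dim arrays, again with interphase transfer array A alone, Bad (2.92, adjusted p = 0.00381), Bcl2l10 (-2.16, adjusted p = 0.00703) and Bcl2l1 probe 1 (-1.91, adjusted p = 0.0135) passed, and Bik (-1.77, adjusted p = 0.120), Bcl2l14 (2.18, adjusted p = 0.0652) and Bcl2l11 probe 1 (1.24, adjusted p = 0.0842) did not. Bcl2l1 probes 2 (-2.67, adjusted p = 0.00777) and 3 (-1.52, adjusted p = 0.0233) were also lower and Bid higher (1.85, adjusted p = 0.00201) in that fit. Oocyte markers were lower in M phase transfer embryos in 4 of 9 tested, which moved with Bcl2l10 and Bik. Amhr2 was at least 4.91-fold higher in M phase transfer embryos (adjusted p = 4.02e-07). Of 7 ES cell markers tested, 1 was higher and 1 lower there. Nanog was at least 2.36-fold higher (adjusted p = 0.00206). Sox2 was lower (measured means 6.24 in M phase and 7.61 in interphase transfer embryos, adjusted p = 0.0231). It was detected on 1 of 2 interphase transfer arrays and on no M phase transfer array. The part of these markers was not tested. Median scaling ended the calls of Bcl2l10 (-1.0, adjusted p = 0.576), Bik (-1.59, adjusted p = 0.147) and Bak1 (-0.59, adjusted p = 0.134).

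ES cells differed from 2-cell embryos in 4 member probes, 1 higher and 3 lower, with 13.8% of all probes called (7.49% higher and 6.31% lower). Mcl1 was higher by 1.44 ± 0.40 (adjusted p = 0.0257). Bcl2l10 was at least 15.1-fold lower (adjusted p = 0.000372), Bcl2l14 at least 4.63-fold (adjusted p = 0.0326) and Bcl2l11 probe 1 at least 2.62-fold (adjusted p = 0.0201), all undetected in ES cells. Median scaling ended the calls of Mcl1 (1.65, adjusted p = 0.356) and Bcl2l10 (-4.16, adjusted p = 0.0971). Bik (-1.93 ± 0.76, adjusted p = 0.118), Bad (-1.02 ± 0.54, adjusted p = 0.280) and Bok (0.19 ± 0.56) did not pass. No chip held both groups, and with chip as a block the calls of Mcl1 (1.45, adjusted p = 0.246), Bcl2l14 (-2.38, adjusted p = 0.163) and Bcl2l11 probe 1 (-1.77, adjusted p = 0.203) were lost.

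The balance of the family was described as the mean log2 level of the 3 pro-survival genes minus that of the 7 pro-death genes, relative to mitotic zygotes. It uses 1 probe per gene and carries no test. It was -2.24 in M phase transfer embryos (SD 0.58, n = 4), -0.80 in interphase transfer embryos (SD 1.67, n = 2), 0.06 in genomeless embryos (SD 0.03, n = 2), -2.52 in drug controls (SD 0.46, n = 2) and -2.71 in ES cells (SD 0.30, n = 2). In the embryo series it was -0.59 in interphase zygotes (SD 0.16, n = 3), 0 by construction in mitotic zygotes (SD 0.03, n = 2) and -2.47 in 2-cell embryos (SD 0.15, n = 2). Samples thus lay well below the zygotes in M phase transfer embryos, drug controls, ES cells and 2-cell embryos, with the interphase transfer arrays split at 0.38 (A) and -1.98 (B, dim). The genomeless value rests on readings of Bad, Bid, Bcl2l14 and Bcl2l11 probe 1 that were undetected, and it was -0.80 with undetected values set at the lowest detected level and -0.78 with median scaling. Background readings enter every other value too. In the mitotic zygote reference Bid, Bcl2l14 and Bcl2l11 probe 1 were undetected, and Bad was detected on 1 of 3 arrays. In ES cells Bcl2l10, Bcl2l11 probe 1 and Bcl2l14 were undetected.

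How far each side contributed differed between groups. In 2-cell embryos the pro-survival mean was -1.29 and the pro-death mean 1.18 relative to mitotic zygotes, and in ES cells they were -2.54 and 0.17. In genomeless embryos both lay above mitotic zygotes, at 0.55 (SD 0.34) and 0.49 (SD 0.31). The small SD of the genomeless balance (0.03) thus does not mean that the 2 arrays agreed gene by gene. Bcl2l10 read 13.70 on array A and 11.37 on array B, and Bcl2l1 probe 2 read 8.11 and 11.07. Bcl2l10 carried much of the pro-survival side: without it the balance was -1.23 in M phase transfer embryos, 1.02 in genomeless embryos, -1.18 in drug controls, 0 in ES cells and -1.39 in 2-cell embryos.

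**Figure D4:**
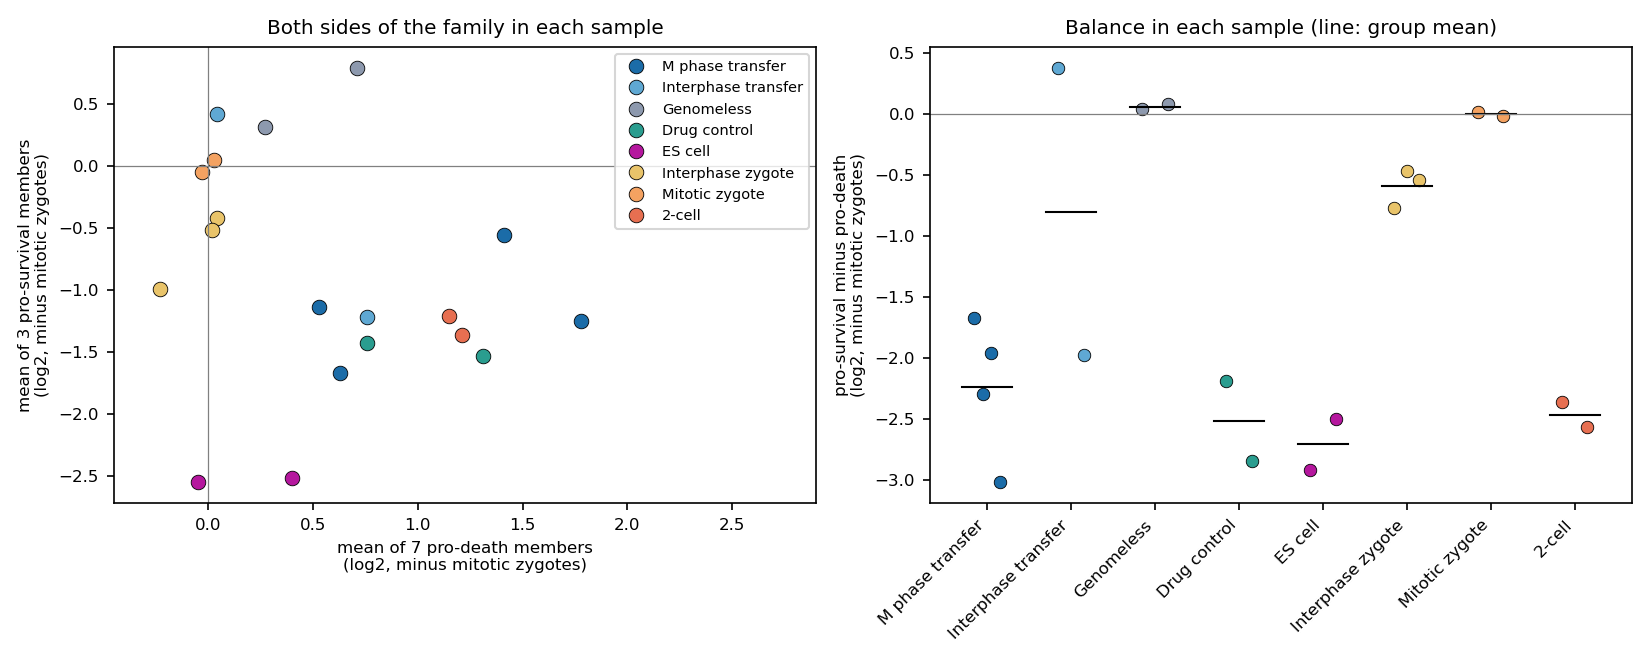
Left, mean log2 level of the 3 pro-survival genes against that of the 7 pro-death genes in each of 19 samples, both minus mitotic zygotes. Right, their difference in each sample by group, with lines at group means; 2-cell embryos sit at -2.57 and -2.36 and genomeless embryos at 0.04 and 0.08.

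Other genes of the pathway were counted from lists of related genes. Of 11 other Bcl2 family genes on the array, Bcl2 and Bbc3 among them, 3 were tested, and Bcl2l2, a pro-survival gene, was at least 2.18-fold higher in 2-cell embryos than in mitotic zygotes (adjusted p = 0.0217). Among 8 tested caspase and apoptosome genes, 2 were higher and 1 lower in 2-cell embryos than in mitotic zygotes, where 13.5% of all probes were higher and 13.6% lower. Casp8, the initiator caspase of death receptors, was at least 6.82-fold lower (adjusted p = 1.43e-05), Endog, a mitochondrial nuclease, at least 4.94-fold higher (adjusted p = 0.000661) and Casp6, an executioner caspase, higher by 1.72 ± 0.55 (adjusted p = 0.0320). Against drug controls, 2 of these 8 were lower in genomeless embryos (18.2% of all probes), Endog at least 1.56-fold (adjusted p = 0.000368) and Casp6 with a difference of -2.32 ± 0.55 (adjusted p = 0.00573).

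Of 6 tested genes for inhibitor of apoptosis (IAP) proteins and their antagonists, 1 was higher and 1 lower in 2-cell embryos than in mitotic zygotes, against the same 13.5% and 13.6% of all probes. Diablo, which releases caspases from IAP proteins once it leaves mitochondria, rose by 2.28 ± 0.31 (adjusted p = 0.000138), and Birc3 fell by 2.46 (SE 0.73, adjusted p = 0.0225). Diablo was also higher by 2.51 ± 0.27 in M phase than in interphase transfer embryos (adjusted p = 1.44e-05) and lower in genomeless embryos than in drug controls (-2.70 ± 0.31, adjusted p = 2.85e-05). None of 3 tested death receptor genes was called in any of the 10 comparisons. Of 20 tested partners of Bcl2 proteins, 3 were higher and 5 lower in 2-cell embryos than in mitotic zygotes (27.1% of all probes called). Among them were Bag1, a co-chaperone first found as a Bcl2 partner, higher by 3.78 ± 0.71 (adjusted p = 0.00145) and Bag4 lower by a log2 difference of -3.19 ± 0.60 (adjusted p = 0.00141).

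Genes whose levels across the 19 samples were most like a member's were ranked by Pearson's r among up to 10204 probes, as a description of samples that share groups. Bcl2l10 was closest to Trim61 (r = 0.972), the oocyte gene Oosp1 (0.944) and Tubg2 (0.942). Bad was closest to Uap1l1 (0.982), Prkcz (0.982) and Dtymk (0.972), Bik to Ifitm6 (0.950), Mcl1 to Ndufa13 (0.907), Bok to Psmd7 (0.906) and Bid to Rprd1b (0.939). Among the Bcl2l1 probes, probe 2 was closest to Zp1 (0.937), an egg coat gene.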

How the data were processed

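RNA was isolated with PicoPure and amplified and labelled by the Illumina protocols, per the labels. The deposited signal is a probe intensity that the authors obtained with GenomeStudio (version not given in the sources used here), per the submitters' processing notes, after background subtraction and before scaling between arrays, and beside it a detection p-value was deposited for each probe. A second deposited table holds the same intensity times 1 factor per array. From the first, levels were computed by normexp background correction (offset 50), quantile normalisation and log2 in limma 3.58.1 (R 4.3.3), keeping 11541 of 24613 probes with a detection p-value below 0.01 on at least 2 arrays. The platform table gave 20984 probes 1 symbol, 1 several and 3628 none. Arrays whose log2 differences had an SD below 0.2 (0.117 and 0.120, against 0.280 to 1.48 in the 17 other pairs) were averaged. One limma model with a mean per group (11 residual degrees of freedom) gave 10 comparisons, with Benjamini-Hochberg adjustment over all tested probes within each. The code was tested on simulated data. Where no array of the dimmer group detected a probe, a fold is a bound: the brighter group's mean against, per dim array, the higher of its lowest detected level and the probe's own. The number of arrays limits the precision.

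Members and gene lists were chosen with earlier results of these data known. Named genes are the members, and up to 3 called genes per list with the largest differences. Alternatives changed background correction, scaling, filter, probe choice, chip or replicate blocks, array weights and samples. Normalising without the 2 dim arrays, and the balance without them, were added after seeing the data. Replicate letters were not treated as pairs (mean correlation of deviations 0.0152 over 57 same-letter pairs, 13 above 0.1).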

Additional observations from a re-analysis of the deposited data

How the results depend on the processing

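All 39 calls on member probes kept their direction under every alternative run, and 3 kept an adjusted p below 0.05 under all: Bok probe 2 in 2-cell embryos against mitotic zygotes, and Bad in genomeless and in interphase transfer embryos against drug controls. The number of calls lost was 26 of 39 with arrays scaled to a common median, 20 with array quality weights, 13 with no filter, 13 without the 2 dim arrays and 7 with chip as a fixed block. Median scaling left 0 calls in genomeless embryos against mitotic zygotes, 1 against drug controls, 1 in interphase transfer embryos against drug controls and 2 in ES cells against 2-cell embryos. Array weights left 1, 2, 2 and, for M phase against interphase transfer, 1, and gave 1 in mitotic against interphase zygotes. With no filter, genomeless and interphase transfer embryos against drug controls had 6 and 3 calls, and without the 2 dim arrays the first had 5, also when the rest were normalised alone. ES cells against 2-cell embryos had 1 call with chip as a block, fixed or random. The other calls lost with the fixed block were Bcl2l11 probe 1 in 2-cell embryos against mitotic zygotes (1.51, adjusted p = 0.0579) and in interphase transfer embryos against drug controls (-1.59, adjusted p = 0.0578), and Bcl2l1 probe 2 (3.08, adjusted p = 0.0756) and Bcl2l14 (-1.86, adjusted p = 0.0588) in genomeless embryos against drug controls.

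Leaving out 1 sample at a time gave 3 to 5 calls in 2-cell embryos against mitotic zygotes, 1 to 8 in genomeless embryos against mitotic zygotes, 3 to 8 against drug controls, 2 to 6 in interphase transfer embryos against drug controls, 0 to 4 against genomeless embryos, 3 to 7 in M phase against interphase transfer and 1 to 2 in ES cells against 2-cell embryos. Replicate letters did not pair the samples, and with the replicate block these 7 comparisons had 9, 3, 9, 6, 0, 5 and 5 calls. Counts of member calls under the alternatives are given without the share of all probes called. Whether members moved more than other probes was not tested. The split of all calls also moved with scaling: the share higher was 33.6% in genomeless embryos against mitotic zygotes and 5.5% with median scaling (median of all probes -0.11 and 0.17) and 14.7% with the deposited scaling, 37.5% and 6.2% against drug controls, and 34.6% and 5.5% in interphase transfer embryos against drug controls. It was 49.9% in 2-cell embryos against mitotic zygotes and 38.5% with the deposited scaling, 61.8% in M phase against interphase transfer and 72.2% with median scaling, and 61% in interphase transfer against genomeless embryos and 77.7% with the deposited scaling.

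The balance relative to mitotic zygotes widened with neqc, the deposited scaling and a normexp offset of 16. It was then -3.42, -3.97 and -3.02 in 2-cell embryos, -3.79, -4.30 and -3.48 in ES cells, -3.54, -4.18 and -3.11 in drug controls and -0.21, -0.42 and 0.02 in genomeless embryos. In M phase transfer embryos it was -3.19 with neqc and -3.77 with the deposited scaling, and in interphase zygotes -0.79 with the deposited scaling. Without Bcl2l10 it was -0.42 in interphase zygotes, -1.39 in 2-cell embryos, 1.02 in genomeless embryos, -1.23 in M phase transfer embryos, -1.18 in drug controls and 0 in ES cells. The mean of all probes per gene gave -2.24 in 2-cell embryos. Undetected values set at the lowest detected level gave -2.37 in ES cells and -0.80 in genomeless embryos, where median scaling gave -0.78. The cause of these shifts was not tested. Depth limits most the 2 dim arrays, with their lowest detected levels of 8.74 and 8.04.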
